A study of Homo sapiens with 11 samples.

Results

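The binding of the transcription factor MYRF was compared between CFPAC1 and HPAF2, established human cell lines of pancreatic ductal adenocarcinoma. The members are the 4 MYRF libraries of chromatin immunoprecipitation followed by sequencing (ChIP-seq) among the 11 samples of the series, 2 replicates of each original line, grown without any stated treatment. A reproducible site of a line was a stretch of merged overlapping peaks that held a peak of both replicates. This gave 2792 sites in CFPAC1 and 2883 in HPAF2, out of 8883 regions when the peaks of all 4 libraries were merged. A site was called shared when it overlapped a reproducible site of the other line, line-only when neither library of the other line had a peak there, and partial otherwise. Lists of FOS and of acetylated lysine 27 of histone H3 (H3K27ac) served as a second readout. They come from a clone of CFPAC1 used as control and, for H3K27ac, also from a clone of CFPAC1 carrying Cas9 and a guide against MYRF. Each clone is a single one, and an input library of HPAF2 was not analysed here. Peak lists measure no expression, so the identity of the lines was not checked by markers.

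MYRF is anchored in the endoplasmic reticulum membrane, where it trimerises and cuts itself. The released part enters the nucleus and binds DNA. It is best known as the factor that switches on myelin genes in oligodendrocytes. FOS pairs with JUN proteins to form AP-1, and H3K27ac marks active promoters and enhancers.

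The CFPAC1 replicates held 4743 and 4041 peaks, and the HPAF2 replicates held 3702 and 4326. Peaks on chromosomes 1 to 22 and X were used, which left out 1 and 2 peaks of the CFPAC1 lists. The lowest -log10 q was about 1.3 in every list, so the lists were cut at the same significance. Depth is unknown because the lists hold no read counts, and the labels do not name the control used to call the CFPAC1 peaks. The fold enrichment of a peak is the authors' value. A fold is given to describe a peak within its own list, and lines were compared only through the rank within a list, given as a percentile (100 is the strongest peak of the list) or as a rank (1 is the strongest). The labels do not say whether the replicates were separate cultures, so every p-value measures the spread between these libraries, which may be technical.

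The sequences below stand at summits that were either common to the lines or found in a single line, in promoters that hold the 7-letter word CTGGCAC or CTGGTAC known for MYRF. Capitals mark the matches, on either strand (GTGCCAG and GTACCAG are the reverse complements). They were taken from the RefSeq promoter table (GRCh38), are cut to at most 60 bases on each side of the summit and 30 bases past the start site, and read 5′ to 3′ on the strand of the gene.
RGS3, shared, chr9:113580831-113580951, plus strand: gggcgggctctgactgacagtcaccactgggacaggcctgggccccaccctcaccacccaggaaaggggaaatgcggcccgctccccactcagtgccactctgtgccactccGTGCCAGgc
DIS3L2, shared, chr2:231961463-231961569, plus strand: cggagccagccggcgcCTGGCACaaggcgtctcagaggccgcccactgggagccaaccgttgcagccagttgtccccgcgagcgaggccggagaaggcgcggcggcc
FAM107B, shared, chr10:14572165-14572249, minus strand: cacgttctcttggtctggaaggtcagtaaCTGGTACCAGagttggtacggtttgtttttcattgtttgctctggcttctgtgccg
LINC01978, shared, chr17:79919237-79919357, plus strand: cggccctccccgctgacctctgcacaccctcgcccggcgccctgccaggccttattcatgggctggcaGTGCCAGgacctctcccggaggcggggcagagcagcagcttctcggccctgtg
KLK11, shared, chr19:51026587-51026651, minus strand: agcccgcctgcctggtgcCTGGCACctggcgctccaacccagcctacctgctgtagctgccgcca
PIH1D2, CFPAC1-only, chr11:112074093-112074213, minus strand: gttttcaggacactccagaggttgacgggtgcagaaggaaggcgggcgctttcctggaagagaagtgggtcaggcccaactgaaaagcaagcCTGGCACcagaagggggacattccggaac
SH3TC2, HPAF2-only, chr5:149063087-149063207, minus strand: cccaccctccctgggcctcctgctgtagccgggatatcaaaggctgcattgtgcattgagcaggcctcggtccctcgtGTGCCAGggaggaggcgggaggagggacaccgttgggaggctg
LOC105378494, HPAF2-only, chr10:114320832-114320952, plus strand: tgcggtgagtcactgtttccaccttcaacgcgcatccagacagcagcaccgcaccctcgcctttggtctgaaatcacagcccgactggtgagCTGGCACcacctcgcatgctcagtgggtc

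The RGS3 promoter site was near the top of every list, at percentiles 99.5 and 99.6 in CFPAC1 and 98.5 and 98.9 in HPAF2. RGS3 encodes a regulator of G-protein signalling. The site at KLK11, which encodes a kallikrein-related secreted protease, stood higher in HPAF2, at percentiles 99.5 and 99.7, than in CFPAC1, at 87.7 and 91.3. Its rank among the regions found in all 4 libraries was 451 and 287 in CFPAC1 against 17 and 15 in HPAF2 (adjusted p = 0.024, limma, described below). The PIH1D2 site was of middle rank in CFPAC1 (percentiles 46.8 and 70.9), and no HPAF2 library listed it. The site at SH3TC2, a gene expressed in myelinating Schwann cells, was at percentiles 78.8 and 79.3 in HPAF2, and the LOC105378494 site at 10.4 and 18.5.

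The word CTGGCAC or CTGGTAC lay in 22 of the 79 promoter windows with the summit of a shared CFPAC1 site, which is 27.8% (95% Wilson interval 19.2 to 38.6). It lay in 7.23% of all 34961 promoter windows of the same 300 bases. At CFPAC1-only sites it lay in 5 of 50 windows (10%, interval 4.35 to 21.4), and at HPAF2-only sites in 5 of 51 (9.80%, interval 4.26 to 21.0). The AP-1 word TGANTCA lay in 7.68% of all windows, in 26.6% at shared CFPAC1 sites, in 24% at CFPAC1-only sites and in 33.3% at HPAF2-only sites. Both words were searched on both strands, and the 2 MYRF words can overlap. The intervals cover counting over windows only, promoters of chromosome 8 were not used here, and a match is a description of letters and not of a binding event.

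Of the 2792 CFPAC1 sites, 1284 were shared (46%), 290 were partial (10.4%) and 1218 were CFPAC1-only (43.6%). Of the 2883 HPAF2 sites, 1279 were shared (44.4%), 324 were partial (11.2%) and 1280 were HPAF2-only (44.4%). The line-only sites were mostly weak ones. Among the 50 strongest sites, 3 of CFPAC1 and 2 of HPAF2 were line-only, and among the 200 strongest, 19 and 16. In CFPAC1 the line-only share went from 12.5% in the strongest decile (interval 9.16 to 16.9) to 58.9% in the weakest (53.1 to 64.5). In HPAF2 it went from 11.8% (8.57 to 16.0) to 62.6% (56.9 to 68.0). The median site percentile, taken from the replicate where a site was weaker, was 71.4 and 68.4 at shared sites of CFPAC1 and HPAF2 against 39.7 and 39.9 at line-only sites. These shares are not tested, because 2 libraries against 2 cannot give an exact permutation p under 0.333.

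**Figure D1:**
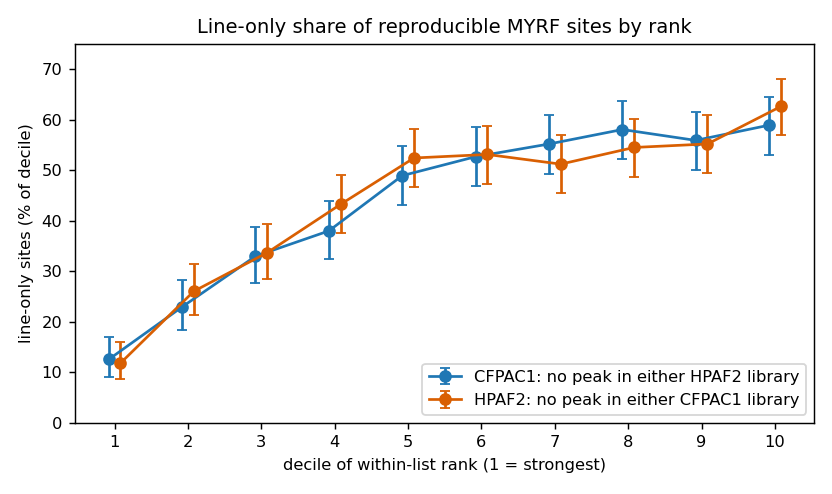
Share of reproducible sites with no peak in either library of the other line (vertical axis, %), by decile of within-list rank (horizontal axis), with 95% Wilson intervals for counting. Both lines climb from 12.5% and 11.8% in the strongest decile to 58.9% and 62.6% in the weakest.

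Some line-only sites were nonetheless among the strongest peaks of their list. The highest CFPAC1-only site lay 119.5 kb from EEA1, an early endosome tether, with a fold enrichment of 40.4 and 38.3. The next lay inside STK40, a serine/threonine kinase-like gene, with 33.8 and 31.6. LDB2, which encodes a binder of LIM-domain factors, followed with 30.1 and 31.5. These 3 sites were at percentile 99.0 or above in both CFPAC1 libraries, and no HPAF2 library listed a peak there. Others of the leading 12 lay 287 kb from DUSP4, a phosphatase of MAP kinases (20.7 and 24.7), inside CHMP6, an ESCRT-III subunit (23.5 and 18.7), inside EFNA5, an ephrin (21.4 and 18.6), and 111.3 kb from the MYC proto-oncogene (17.5 and 18.7). The remainder were nearest to HEXD, LRRTM1, MREG, ZFAND5 and SLX9.

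The highest HPAF2-only site lay inside WWOX and 19.8 kb from MAF, a basic leucine zipper transcription factor, with 41.2 and 46.5. The next lay 40.8 kb from the zinc finger gene ZFP90, with 39.8 and 46.2. Then came a pair of sites outside protein-coding genes, 483.7 and 451.6 kb from MED13L, a Mediator subunit gene, with 29.3 and 29.3 at the first and 26.8 and 30.3 at the second. Others lay 1.12 kb from GPD1L (20.4 and 23.7), inside PLD1, a phospholipase D (19.8 and 23.9), inside CDH13, an atypical cadherin (17.5 and 21.7), and inside NTSR1, a neurotensin receptor (16.3 and 16.8). DDX1, FBXL4 and JOSD1 were nearest to others of the leading 12. The leading sites differed in CFPAC1 chromatin. All 12 of CFPAC1 carried H3K27ac in at least 1 library of the CFPAC1 control clone, against 2 of the 12 of HPAF2, among them the NTSR1 site.

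A peak in all 4 libraries was found at 1282 regions, and their relative strength differed between the lines. Spearman's rho of the ranks over these regions was 0.86 between the CFPAC1 replicates and 0.87 between the HPAF2 replicates, against 0.50 to 0.52 for the 4 pairs between lines. These are descriptions across regions, which are not independent replicates. Of the 50 strongest regions, 43 were in common to both replicates of each line, and 21 to all 4 libraries. In a limma fit of the normal score of the rank, 131 regions stood higher in CFPAC1 (10.2% of those tested) and 155 stood higher in HPAF2 (12.1%), at an adjusted p under 0.05. The ranks of the lines did not overlap at 857 regions (66.8%). The calls rest on all 4 libraries: leaving out any of them left 0 calls in limma, where the lone library of a line is assumed to vary like the other line, with 189 to 225 regions higher in CFPAC1 and 187 to 261 higher in HPAF2 at an unadjusted p under 0.05. Ranking by -log10 q in place of fold enrichment gave 83 and 92 calls. A rank is relative, so a region could stand higher only against the other regions of the set.

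FGFBP1, whose product carries fibroblast growth factors, led the regions higher in CFPAC1. Its site, 21.8 kb away, had ranks 184 and 120 in CFPAC1 and 1281 and 1246 in HPAF2, a score difference of 3.68 ± 0.42 (SE, adjusted p = 0.018, limma). NPAS2, a clock transcription factor, followed, with ranks 376 and 418 against 1271 and 1277. Both sites thus ranked high in the CFPAC1 libraries and at the bottom of the HPAF2 libraries. A site 28.6 kb from the transcription factor gene MEF2A was at ranks 70 and 101 against 869 and 1066. The site inside CCN4, a matricellular protein gene induced by WNT1, was at 275 and 281 against 1163 and 1172, and a site inside OSBPL3, a lipid-binding protein gene, at 213 and 207 against 1064 and 1251. The other leading regions were nearest to KIF13B, CCDC171, IRF2BP2, MYLK, TAGAP, SLCO4A1 and ANKRD55, with score differences from 2.02 to 2.34. Ranked by -log10 q, the calls at OSBPL3, KIF13B, CCDC171, MYLK, SLCO4A1 and ANKRD55 were lost (adjusted p from 0.051 to 0.17, limma), in the same direction.

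The regions higher in HPAF2 were led by a site 10.9 kb from CHST4, a carbohydrate sulfotransferase gene, with ranks 1126 and 1058 in CFPAC1 against 22 and 16 in HPAF2 (score difference -3.25 ± 0.20, adjusted p = 0.017, limma). A site inside GRAMD1B, the sterol carrier gene that also holds a strong site of both lines, was at 1267 and 1256 against 170 and 193. The site 1.81 kb from APLP2, a relative of the amyloid precursor gene, was at 1269 and 1274 against 356 and 183. All 3 ranked far lower in both CFPAC1 libraries than in either HPAF2 library. A site 39.1 kb from TNC, the matrix protein tenascin C, was at 1083 and 946 against 56 and 47. The site inside AEN, an exonuclease gene known as a target of p53, differed at the top of the lists. It was the second of the 1282 regions in both HPAF2 libraries and at 299 and 294 in CFPAC1. JAZF1, MACROD2, KLF14, DLK1, KIF18A, RPGRIP1 and MOV10L1 were nearest to the rest, with score differences from -2.55 to -2.32, and the call at MOV10L1 was lost when ranked by -log10 q (adjusted p = 0.067, limma).

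**Figure D2:**
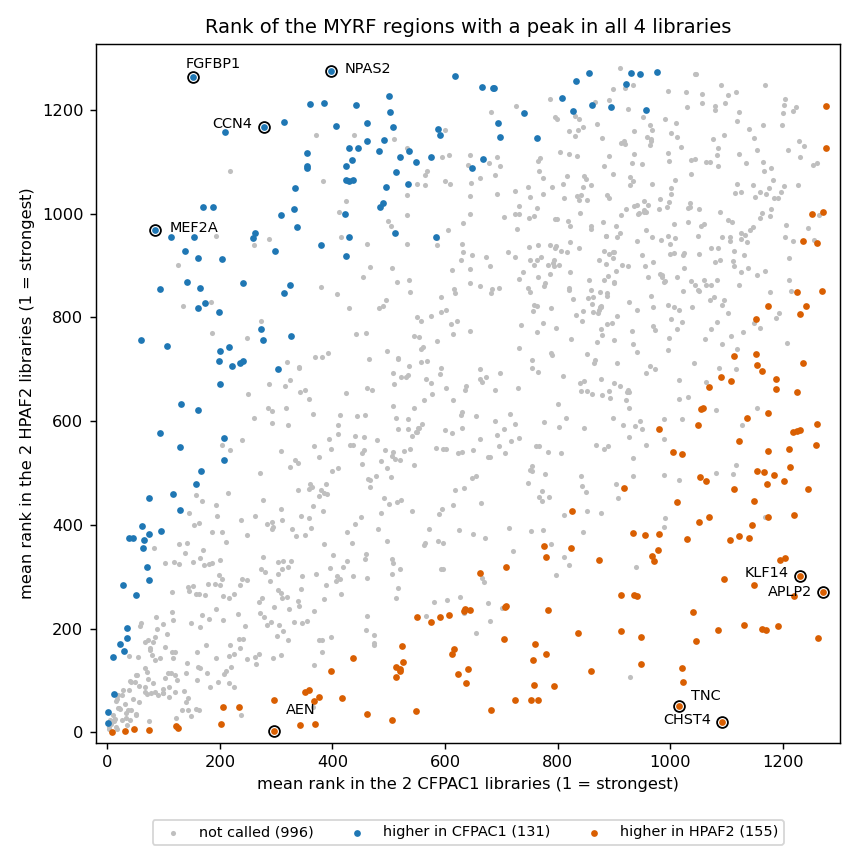
Mean rank in the 2 CFPAC1 libraries (horizontal axis) and the 2 HPAF2 libraries (vertical axis) of the 1282 regions with a peak in all 4 libraries, where 1 is the strongest. Coloured points are the 131 regions higher in CFPAC1 and the 155 higher in HPAF2, with the nearest gene of 9 of them, and the called regions lie far from the diagonal on both sides.

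The readouts that were not used in the ranking also differed between these groups. A peak of H3K27ac in the CFPAC1 control clone overlapped 96.2% and 94.7% of the regions higher in CFPAC1 (2 libraries), 94.3% and 93.3% of those not called, and 81.9% and 83.9% of those higher in HPAF2. FOS of the same clone overlapped 82.4% and 84.7%, 75.3% and 79.9%, and 68.4% and 67.7%. The Wilson intervals for H3K27ac of the first and last group did not overlap (91.4 to 98.4 against 75.1 to 87.2 in library 1). That of the first group overlapped the interval of the regions not called (92.7 to 95.6 in library 1). For FOS, the intervals of the first and last group overlapped in library 1 (75.03 to 88.01 against 60.7 to 75.2) and not in library 2. Regions are not replicates of a line, so these intervals cover counting only. Of the 12 leading regions higher in HPAF2, those at CHST4, JAZF1 and MOV10L1 had neither a FOS nor an H3K27ac peak in either CFPAC1 library of the control clone.

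Peaks were spread differently over the chromosomes. In a limma fit of the log2 share of a library's peaks on each of 23 chromosomes, 6 chromosomes had a larger share in CFPAC1 (26.1%) and 11 had a larger share in HPAF2 (47.8%), at an adjusted p under 0.05. The libraries of the lines did not overlap on 18 chromosomes (78.3%). The largest difference was on chromosome 12, which held 4.13% and 4.56% of the CFPAC1 peaks against 7.32% and 6.96% of the HPAF2 peaks (log2 difference -0.72 ± 0.08 SE, adjusted p = 8.9e-11, limma). The SE was 0.077 on every chromosome, because the fit pooled the spread over all 23. The p-value of a chromosome therefore does not measure the spread of that chromosome alone. Chromosome 8 held 3.33% and 3.71% against 5.70% and 5.52% (-0.67). Chromosome 18 differed by -0.57 and chromosome 9 by -0.51 in the same direction. Chromosome 1 held 12.1% and 12.6% of the CFPAC1 peaks against 8.995% and 8.946% (0.46). Chromosomes 15 (0.56), 14 (0.51), 17 (0.51), 10 (0.48) and 4 (0.33) were also higher in CFPAC1. Chromosomes 3, 7, 11, 16, 19, 20 and X were higher in HPAF2, with differences from -0.37 to -0.17. The shares of a library add up to 100%, so a larger share on one chromosome lowers the others.

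Not all of these calls held. Leaving out CFPAC1 replicate 1 or HPAF2 replicate 1 ended the call on chromosome 11 (-0.13 and -0.16). Leaving out replicate 2 of CFPAC1 or of HPAF2 ended that on chromosome 16 (-0.19 and -0.17), and leaving out CFPAC1 replicate 2 or HPAF2 replicate 1 that on chromosome 20 (-0.13 and -0.11). With only peaks of a -log10 q of at least 10, chromosome 14 differed by 0.02, chromosome 19 by -0.01, chromosome 11 by -0.01, chromosome 16 by -0.14, chromosome 9 by -0.19 and chromosome 1 by 0.19, and none of these 6 was called. The other 11 kept their call and direction at that threshold, chromosome 4 with a larger difference (0.86) and chromosome 8 with a smaller one (-0.27).

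In the CFPAC1 control clone, chromosome 12 held 4.63% and 4.70% of the FOS peaks and 4.95% and 4.91% of the H3K27ac peaks, closer to the CFPAC1 than to the HPAF2 share of MYRF peaks. Chromosome 1 held 9.01% and 9.15% of the FOS peaks and 9.51% and 10.3% of the H3K27ac peaks, which lay nearer to the HPAF2 share of MYRF peaks. The median score difference of the regions found in all 4 libraries was 0.13 on chromosome 12 and 0.11 on chromosome 8, opposite in sign to the share of peaks. It was also opposite on chromosomes X (0.41), 14 (-0.15), 7 (0.05), 9 (0.03) and 17 (-0.01). On the other called chromosomes it had the sign of the share, among them chromosomes 1 (0.05), 4 (0.31) and 20 (-0.30). Line-only sites made up 57% of the HPAF2 sites on chromosome 12 against 33.3% of the CFPAC1 sites there, and 33.2% against 45.9% on chromosome 1.

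**Figure D3:**
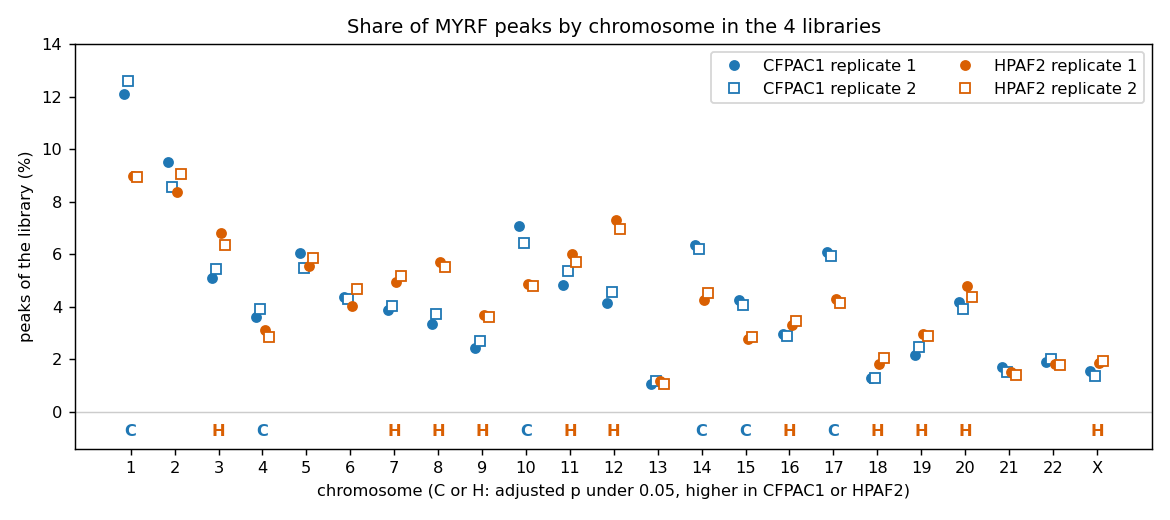
Percent of each library's MYRF peaks (vertical axis) on each chromosome (horizontal axis), as 1 point per library. The letters C and H mark the 6 chromosomes called higher in CFPAC1 and the 11 called higher in HPAF2, and on chromosomes 12 and 8 both HPAF2 libraries lie well above both CFPAC1 libraries.

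Within chromosomes, 211 stretches of 5 Mb held at least 8 peaks on average. Peaks per 1000 peaks of the library were higher in CFPAC1 in 51 of them (24.2%) and higher in HPAF2 in 43 (20.4%), by limma on the log2 scale with a pseudocount of 0.5 peaks. With lists of equal length the counts were 17 and 11, and without HPAF2 replicate 1 or replicate 2 the stretches higher in HPAF2 numbered 28 and 27. Which line had more calls depended on the setting, with 30 and 40 in stretches of 10 Mb and 65 and 84 at a minimum of 4 peaks. Chromosome 1 had 10 stretches higher in CFPAC1 and 0 higher in HPAF2, chromosome 7 had 1 and 7, and chromosomes 8, 9 and 12 had 0 against 5, 3 and 5. The largest differences were local. The stretch from 185 to 190 Mb of chromosome 1, which holds the nuclear pore gene TPR, had 31 and 24 peaks in CFPAC1 against 0 and 2 in HPAF2 (log2 difference 4.51 ± 0.39). The stretch from 115 to 120 Mb of chromosome 12, with MED13L and the T-box factor gene TBX3, had 2 and 2 against 11 and 17 (-2.63 ± 0.21). Other leading stretches higher in CFPAC1 were 35 to 40 Mb of chromosome 1 (25 and 25 peaks against 2 and 8), 35 to 40 Mb of chromosome 17 (32 and 26 against 6 and 9), and 105 to 110 Mb of chromosome 7 (15 and 11 against 4 and 3). Leading stretches higher in HPAF2 were 30 to 35 Mb of chromosome 3 (6 and 2 against 13 and 14), 100 to 105 Mb of chromosome 7 (6 and 4 against 16 and 16) and 10 to 15 Mb of chromosome 12 (4 and 5 against 13 and 13).

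The CFPAC1 lists held runs of closely spaced weak sites inside single genes, in spans where the HPAF2 lists held few or no peaks. These were noticed after the values were seen. The control used to call the CFPAC1 peaks is not given in the sources used here, and its part in the runs was not tested. A run was taken as at least 4 reproducible sites of a line with gaps of at most 10 kb. CFPAC1 had 25 runs with 151 sites, of which 112 were CFPAC1-only. HPAF2 had 12 runs with 49 sites, of which 11 were HPAF2-only. Among them was a run of 4 sites wholly inside ZMYND8, with a median percentile of 11.2 and peaks of FOS and H3K27ac. In 15 CFPAC1 runs with 108 sites, neither FOS nor H3K27ac of the control clone had a peak anywhere in the span, and no HPAF2 run was of this kind, although both marks were read in CFPAC1 alone. These 15 runs lay wholly inside 13 genes and held 179 and 153 peaks of the CFPAC1 libraries against 6 and 10 of the HPAF2 libraries. H3K27ac of the MYRF knockout clone had 0 peaks there in both libraries. Fold enrichment in these runs was between 2.53 and 8.36, and the median percentile of a run between 4.43 and 52.4.

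The longest was in DYNC1H1, the heavy chain of cytoplasmic dynein, with 17 sites in 34.5 kb (chromosome 14, 101988693 to 102023160, GRCh38). It held 30 and 23 CFPAC1 peaks, which covered 42.3% and 34.2% of the span, against 2 and 4 HPAF2 peaks. In CHD8, a chromatin remodeller, 14 sites in 21.1 kb (chromosome 14, 21390725 to 21411823) held 20 and 18 CFPAC1 peaks and 0 HPAF2 peaks. CSE1L, a nuclear export receptor, had 12 sites, and TOP2A, a DNA topoisomerase, had 8 sites with 17 and 10 CFPAC1 peaks and 0 HPAF2 peaks. The other genes were TPR, DHX9, CCAR1, KPNB1, MACF1, EIF3A, SUPT16H, KMT2A and LRPPRC. They encode nuclear pore and import proteins (TPR, KPNB1), an RNA helicase (DHX9), a translation initiation subunit (EIF3A), chromatin proteins (SUPT16H, KMT2A), a transcription coactivator (CCAR1), a cytoskeletal crosslinker (MACF1) and a mitochondrial RNA-binding protein (LRPPRC). Counts over whole genes contain those of the runs. In DYNC1H1 lay 43 and 33 CFPAC1 peaks against 2 and 7 in HPAF2, and in TPR 27 and 24 against 0 and 2. The absence of FOS and H3K27ac held for the spans and not for whole genes. DYNC1H1 as a whole held 3 and 4 FOS peaks and 11 and 15 H3K27ac peaks of the control clone. TPR held 0 and 0 FOS peaks and 1 and 1 H3K27ac peaks.

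**Figure D4:**
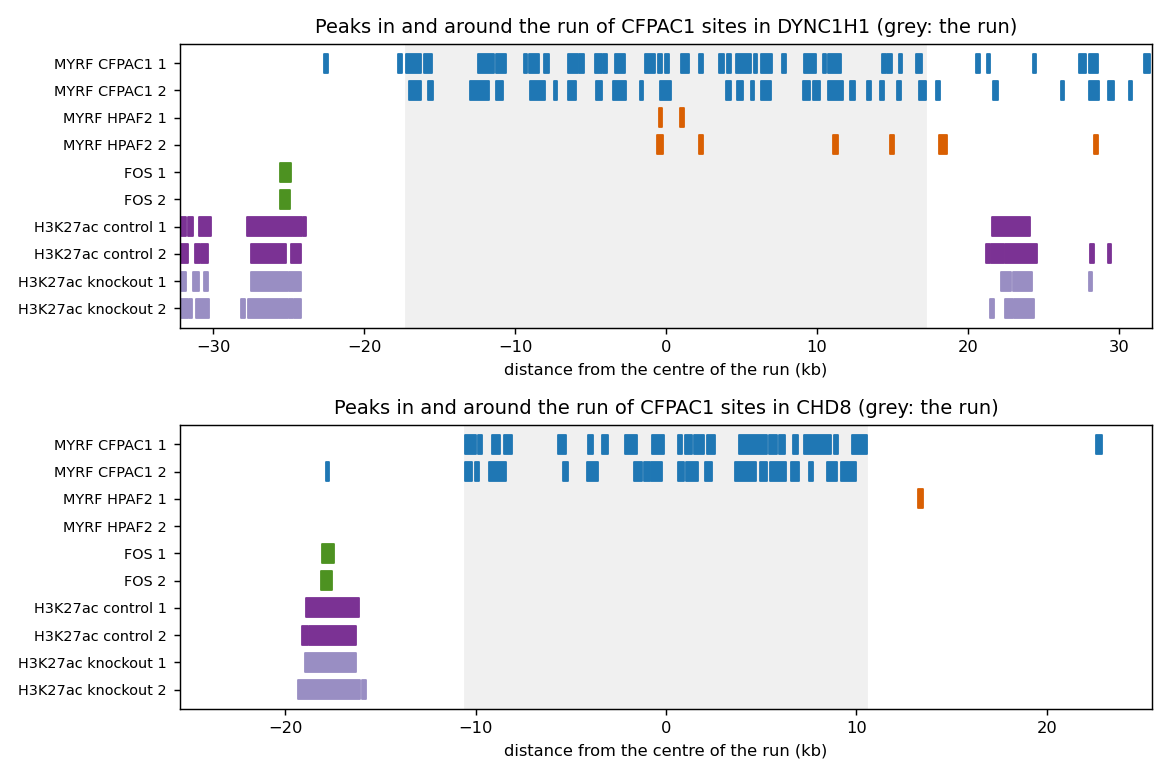
Peaks of the 10 libraries in and around the runs of CFPAC1 sites in DYNC1H1 and CHD8, as distance from the centre of the run in kb (horizontal axis), 1 row per library, with the run in grey. The CFPAC1 MYRF rows are filled along the run (30 and 23 peaks in DYNC1H1, 20 and 18 in CHD8), whereas the FOS and H3K27ac rows are empty there and have peaks outside it.

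Without the peaks in runs, the log2 difference of chromosome 14 was 0.27 in place of 0.51 and that of chromosome 1 was 0.38 in place of 0.46, both still called. The call on chromosome 16 was lost (-0.15). Without the runs, the 185 to 190 Mb stretch of chromosome 1 had too few peaks to be tested. In the 35 to 40 Mb stretch of chromosome 1, the MACF1 run held 13 and 9 of the 25 and 25 CFPAC1 peaks.

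Whole loci were one-sided in a minority of cases. Sites of either line with gaps of at most 100 kb formed 334 loci of at least 3 sites. Of these, 16 had sites of CFPAC1 and no HPAF2 peak in the span (4.79%, 60 sites), and 18 had sites of HPAF2 and no CFPAC1 peak (5.39%, 55 sites). No site of the locus carried FOS or H3K27ac of the control clone at 6 of the 16 CFPAC1 loci and at 5 of the 18 HPAF2 loci. Every site carried both, in both libraries, at 6 of the CFPAC1 loci and at 0 of the HPAF2 loci. The largest CFPAC1 loci were at genes with the runs above, CCAR1 and KPNB1 with 7 sites each, EIF3A with 6 and LRPPRC with 4. Those of higher rank had 3 sites each and were at CHMP6 (best percentile 96.3), at the amyloid precursor gene APP (92.6), near the adhesion gene IGSF11 (90.8) and at PLAU, the urokinase gene (89.7). At APP, IGSF11 and PLAU all 3 sites carried FOS and H3K27ac in every control clone library.

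The largest HPAF2 locus, near the axonemal dynein gene DNAH5, had 4 sites over 140.4 kb and a median percentile of 3.45. The MED13L locus had 3 sites over 66.7 kb, with a median percentile of 97.8, and 0 peaks of FOS or H3K27ac in the span in any CFPAC1 clone library. TRAK1, an adaptor for mitochondrial transport, had 3 sites up to percentile 90.9, STK39 up to 88.7, TRIOBP up to 88.0, EPB41L1 up to 86.3, DYRK2 up to 83.9 and IQGAP2 up to 82.8. At TRAK1, 2 of the 3 sites carried FOS and H3K27ac in every control clone library, and at IQGAP2 none of the 3 did.

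The overlap with H3K27ac and FOS of the CFPAC1 control clone differed between site classes. H3K27ac overlapped 92.4% and 90.8% of the shared CFPAC1 sites (2 libraries), 74.5% and 72.6% of the CFPAC1-only sites, and 57.2% and 54.2% of the HPAF2-only sites. FOS overlapped 74.8% and 78.2%, 57.1% and 61.3%, and 45.5% and 51.02%. Sites of 1 genome are not replicates of a line, so these shares carry counting intervals only. Rank turned the order within a class. Above the 50th percentile, H3K27ac overlapped 86.0% of CFPAC1-only sites (interval 82.6 to 88.9) and 47.4% of HPAF2-only sites (43.0 to 51.8) in library 1. Below it the shares were 67.3% (63.8 to 70.6) and 63.4% (59.96 to 66.7). In both classes the intervals of stronger and weaker sites did not overlap, and the directions were opposite. FOS gave the same order, with 65.3% and 34.3% above the 50th percentile and 51.9% and 52.7% below it. Without the dense runs, the mean H3K27ac share of CFPAC1-only sites was 80.5% in place of 73.6%, and that of FOS 64.8% in place of 59.2%. With peaks of a -log10 q of at least 10, the CFPAC1-only shares were 91.7% and 75.7%. The order of the line-only classes depended on the CFPAC1 libraries. Without CFPAC1 replicate 1, H3K27ac overlapped 58.7% of CFPAC1-only and 59.3% of HPAF2-only sites, and FOS 46.7% and 51.8%. Without CFPAC1 replicate 2 the shares were 54.2% and 58.2% for H3K27ac and 42.5% and 50.5% for FOS. Leaving out a library makes every peak of the other replicate count as a site of the line. The shares above and below the 50th percentile were not recomputed in this way. No H3K27ac or FOS list of HPAF2 was used, so the acetylation of HPAF2-only sites in their own line was not analysed here.

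**Figure D5:**
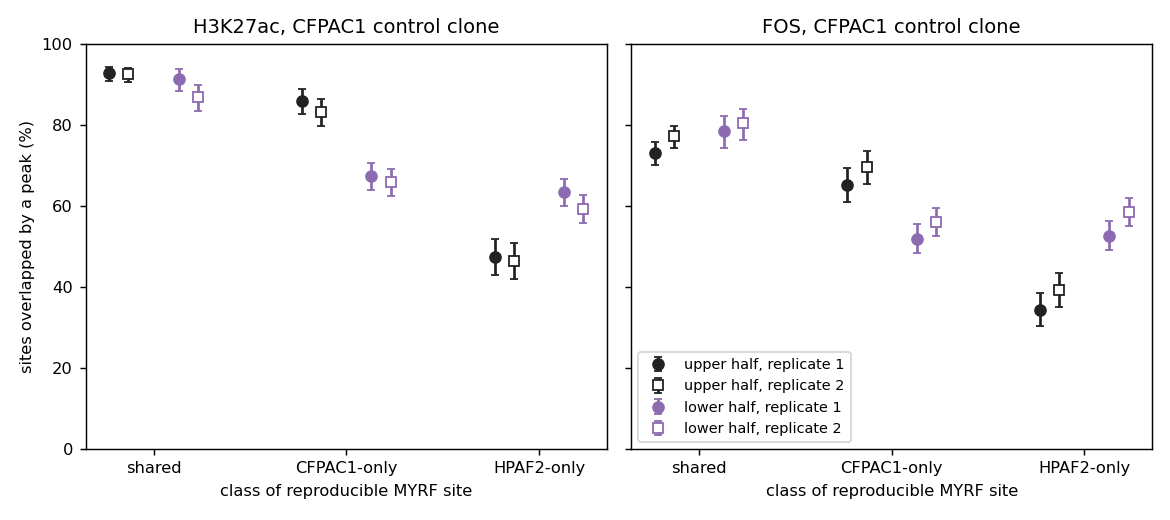
Percent of MYRF sites (vertical axis) overlapped by a peak of H3K27ac (left) or FOS (right) in the CFPAC1 control clone, by site class and above and below the 50th percentile, with 95% Wilson intervals and 1 point per library. The stronger sites lie above the weaker ones at CFPAC1-only sites (86.0% against 67.3% for H3K27ac in library 1) and below it at HPAF2-only sites (47.4% against 63.4%).

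The lines also differed in where their own sites lay relative to genes. Of the CFPAC1-only sites, 57.6% were inside a protein-coding gene (interval 54.8 to 60.4), against 45.5% of the HPAF2-only sites (42.8 to 48.3), 48.1% of the shared sites of CFPAC1 and 48.4% of those of HPAF2. Without the dense runs the CFPAC1-only share was 53.5% (50.6 to 56.4). Sites more than 50 kb from the nearer end of a protein-coding gene made up 32.3% of the CFPAC1-only and 41.7% of the HPAF2-only sites. Within 1 kb of a gene end lay 10.7% of the shared CFPAC1 sites, 8.13% of the CFPAC1-only sites and 6.25% of the HPAF2-only sites. The last 2 shares changed order without HPAF2 replicate 1 (8.84% and 9.55%) and without HPAF2 replicate 2 (9.40% and 9.66%).

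The median width of peaks at shared sites was 428 to 477 bp in the 4 libraries, and at line-only sites 327 to 361.5 bp. Narrow peaks went with low rank, and shared sites below the 50th percentile were 321.5 to 357 bp wide. Line-only sites were also narrower than shared sites on the same side of the 50th percentile, in each library. Below it, line-only sites were 292 to 323.5 bp wide. Above it, they were 379 to 416.5 bp wide, against 486.5 to 553 bp at shared sites. This split does not hold rank constant, and wider sites meet the overlap rule more easily. A width difference beyond rank was therefore not tested. Summits of the 1282 regions were a median of 34 bp apart between replicates of either line and 36 to 39 bp apart between lines. In a limma fit of summit position, 1 region was called (0.078%), and 82 regions had an unadjusted p under 0.05. That region lay 81.6 kb from the forkhead gene FOXL1. Its CFPAC1 summits, 29 bp apart, were 809 ± 26 bp (SE) from its HPAF2 summits, which were 35 bp apart (adjusted p = 0.012, limma). Its ranks were 200 and 121 in CFPAC1 against 786 and 1042 in HPAF2. The call was lost when any library was left out and with the replicate block. Next came a region in DYNC1H1 (458 bp), one 117.9 kb from LOC124905977 (488 bp), one 292 bp from the cyclin D1 gene CCND1 (-298.5 bp) and one in MAN2C1 (381.5 bp). The first 3 of these had an adjusted p of 0.301, and none passed.

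By nearest protein-coding gene within 50 kb, 809 of 19970 genes had a reproducible site in both lines (4.05%). A site in CFPAC1 with no HPAF2 peak was assigned to 422 genes (2.11%), and the reverse to 448 (2.24%). The members of 20 lists of genes chosen for this tissue and factor were read against these shares, with no test. Of 19 integrin and laminin genes, which build the contact of epithelium with its basement membrane, 8 had a site in both lines, 4 in CFPAC1 only and 0 in HPAF2 only. The 4 were ITGA6 (fold enrichment 9.37 and 9.11, percentiles 87.5 and 85.1), ITGB3, LAMB1 and ITGB4. The sites of the last 3 were weaker, at percentiles 27.3 and 47.4, 52.8 and 25.2, and 13.8 and 54.4. Line-only sites were common at such ranks in both lines. The shared ones included ITGB5 (percentiles 96.2 and 95.1 in CFPAC1, 92.1 and 94.2 in HPAF2) and ITGAV. Of 17 mucin and trefoil genes, 0 had a site in both lines or in CFPAC1 only and 3 in HPAF2 only. They were MUC5B (7.60 and 5.23), MUC16 (6.28 and 5.30) and MUC20 (3.28 and 2.90), which encode gel-forming and membrane mucins. Their percentiles were 77.2 and 46.3, 65.8 and 49.2, and 4.44 and 1.10. Judged by the weaker replicate, these are ranks at which line-only sites were common. A list of 17 genes is also too short to read anything from 0 in CFPAC1.

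Of 16 epithelial keratin genes, 6 had a site in both lines, 1 in CFPAC1 only (KRT16, 9.09 and 9.27) and 3 in HPAF2 only (KRT17, KRT8 and KRT6B). A strong site of both lines inside KRT8, at percentiles 99.3 and 98.7 in CFPAC1 and 97.2 and 97.7 in HPAF2, was assigned to the neighbouring KRT18, so KRT8 counts by its weaker site alone (6.50 and 4.71). Of 18 genes of YAP and TEAD, the effectors of the Hippo pathway, and their targets, 6 were in both lines, 1 in CFPAC1 only (WWTR1) and 0 in HPAF2 only. The target genes ANKRD1, CCN1, AXL and AMOTL2 were among the 6. Of 34 WNT pathway genes, 4 were in both lines, 1 in CFPAC1 only (the receptor gene FZD1) and 4 in HPAF2 only. The 4 were the receptor genes FZD5 (9.85 and 12.9) and LGR4 and the WNT target genes AXIN2 and SP5. Of 20 foregut and pancreatic transcription factor genes, 3 were in both lines (HNF4G, FOXA3 and HES1), and CDX2 and FOXA2 were among those in HPAF2 only. Epithelial transcription factor genes numbered 5 in both lines and 2 in HPAF2 only, of 21. ELF3, an epithelial ETS factor, was high in every list (percentiles 97.8 and 97.4 in CFPAC1, 97.9 and 98.1 in HPAF2). The 2 were CREB3L1 and MYRFL, the paralog of MYRF, which held a site in HPAF2 at 7.59 and 8.65.

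Of 20 myelin and oligodendrocyte genes, the best known targets of MYRF in brain, 6 were in both lines and 1 (GALC) in HPAF2 only. GAL3ST1, which makes the myelin lipid sulfatide, was at percentiles 98.7 and 97.7 in CFPAC1 and 97.3 and 97.1 in HPAF2. FA2H, which makes hydroxylated fatty acids of myelin lipids, and MAG, a myelin glycoprotein gene, were shared as well. Genes of the secretory route, which folds, modifies and moves exported proteins, had sites in both lines. ER chaperone and unfolded protein response genes numbered 4 in both lines, 1 in CFPAC1 only (CANX) and 2 in HPAF2 only (TRIB3 and DNAJB11) of 43. Secretory transport genes numbered 4, 2 and 1 of 43, and glycosylation genes 6, 0 and 1 of 42. AP-1 and small MAF genes numbered 3 in both lines (FOS, BATF and FOSL2), 1 in CFPAC1 only (JUN) and 2 in HPAF2 only (JUNB and JUND), of 17. Among 18 mesenchymal genes, 0 had a reproducible site in either line. Of all protein-coding genes, 7.15% had one in CFPAC1 and 7.17% in HPAF2, so a list of that size holds too few genes to read anything from 0. TGF-beta and BMP genes numbered 3 in both lines, 1 in CFPAC1 only and 0 in HPAF2 only, of 27. SMAD6, an inhibitor of BMP signalling, was stronger within CFPAC1 (percentiles 99.8 and 99.8) than within HPAF2 (95.6 and 96.1), and ID1, a BMP target, the other way round (80.5 and 87.3 against 96.8 and 97.5).

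The remaining lists had few members with sites. Lipid synthesis and transfer genes numbered 4 in both lines, 2 in CFPAC1 only and 1 in HPAF2 only of 32. Duct ion transport genes numbered 2, 2 and 1 of 24, EGFR family, MET and ligand genes 3, 0 and 1 of 19, and pancreatic cancer driver genes 3, 0 and 1 of 23. Claudin and tight junction genes numbered 0, 1 and 1 of 19 (TJP1 and CLDN1), and HOX genes 1, 0 and 1 of 39. STARD10, a phospholipid transfer protein gene, had a site in HPAF2 only, at percentiles 92.4 and 92.6.

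The MYRF gene itself (chromosome 11, 61752636 to 61788518, GRCh38) held a weak peak in both HPAF2 libraries, at a fold enrichment of 4.51 and 5.22 (percentiles 30.1 and 45.8), 3962 and 4194 bp from its nearer end. CFPAC1 listed a peak there in replicate 1 (4.06, percentile 20.9) and none in replicate 2. In the neighbouring gene DAGLA, which encodes a diacylglycerol lipase, a peak 23.7 kb from MYRF was listed in both CFPAC1 libraries (5.74 and 7.34) and in HPAF2 replicate 1 (5.19). A peak 35998 and 35972 bp from MYRF was listed in both HPAF2 libraries (9.91 and 6.01) and in neither CFPAC1 library.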

How the data were processed

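The authors' deposited narrowPeak lists of 10 ChIP-seq libraries, 2 per group, were used. Per the submitters' processing notes, the build was GRCh38 (hg38), and the tools named are MACS2 2.1.0.20150731, Bowtie2 2.2.6, Trimmomatic 0.38 and SAMtools. In the deposited lists, column 7 is a fold enrichment (a ratio to the local background), used as ranks only, column 9 a -log10 q and column 10 the summit offset. The lists have no counts, so depth is unknown.

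Overlap meant at least 1 bp. Differences between lines were fitted with limma 3.58.1 (R 4.3.3) across all features, with Benjamini-Hochberg adjustment, a threshold of 0.05 and the line as the only term. The fits were checked on simulated data. Gene positions came from the RefSeq table (19970 protein-coding genes on chromosomes 1 to 22 and X), which has no strand, so distances are to the nearer gene end. The rest used Python 3.11.15 with pandas 2.3.3, numpy 2.4.6, matplotlib 3.10.9 and scipy 1.17.1.

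Members and gene lists were chosen with earlier results of these data known. Named were MYRF, every called chromosome, up to 6 stretches per direction, 12 line-only sites per line, 12 rank differences per direction, 8 one-sided loci per line, 5 summit shifts (those past the threshold, then by p) and up to 4 genes per list and category. The dense runs and their genes, KLK11 and the other printed promoters, and STARD10, SMAD6 and ID1 as examples, were singled out after values were seen. Alternatives covered peak threshold, list length, overlap rule, bin size, distances, ranking and leaving out each library. Some items are not reported here.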

Additional observations from a re-analysis of the deposited data

How the results depend on the processing

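No named chromosome, stretch or site changed direction under the alternatives, and direction was followed for the named items only. These items were chosen for calls or large differences in the same libraries, so a kept direction was largely fixed by that choice. Several orders between line-only classes or between counts of calls did change. With a -log10 q of at least 10, shared sites were 50.9% in CFPAC1, line-only sites 39.4% in CFPAC1 and 46.9% in HPAF2, and 7 chromosomes were higher in HPAF2. At that threshold 10 and 7 stretches were higher in CFPAC1 and HPAF2, 91 regions ranked higher in HPAF2, 0 summits were called, 1 and 3 loci were one-sided, and 370, 213 and 251 genes had sites in both lines, CFPAC1 only and HPAF2 only. Within 1 kb of a gene lay 8.49% of shared and 4.71% of HPAF2-only sites. H3K27ac and FOS overlapped 91.7% and 75.7% of CFPAC1-only and 58.8% and 52.2% of HPAF2-only sites, median widths were 529 and 449.75 bp at shared and line-only sites of CFPAC1 and 567.75 and 450.0 bp in HPAF2, and the MYRF word lay within 100 bp of the summit at 31.9% and 32.8% of promoter sites, against 19.0% and 17.9%.

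With lists of equal length, HPAF2 sites were 41.7% shared and 46.6% line-only, and 17 and 11 stretches were called. With summits within 100 bp, 43.4% and 39.7% of sites were shared, H3K27ac overlapped 74.1% of shared, 69.7% of CFPAC1-only and 45.5% of HPAF2-only sites, and FOS 71.7% of shared and 63.2% of CFPAC1-only sites. Windows around summits replace whole sites there, and the FOS share of CFPAC1-only sites was higher than with whole sites (59.2%) while the others were lower. Stretches of 10 Mb gave 30 calls higher in CFPAC1 and 40 in HPAF2, and a minimum of 4 peaks gave 65 and 84. Ranking by -log10 q gave 83 and 92 calls. Assignment within 5 kb gave 276, 167 and 176 genes. Within 5 kb of a gene lay 22.4% of shared, 16.0% of CFPAC1-only and 15.5% of HPAF2-only sites, and within 1 kb of a RefSeq start site 13.4%, 10.1% and 8.98%. The MYRF word lay within 50 bp at 12.4% of CFPAC1 promoter sites. Without dense runs, an alternative chosen after seeing the data, H3K27ac and FOS overlapped 80.5% and 64.8% of CFPAC1-only sites. Where not stated, the cause was not tested.

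Leaving out 1 library makes every peak of the remaining one count as reproducible. Over the 4 libraries, shared sites were 31.3% to 53.0% in CFPAC1 and 34.3% to 51.1% in HPAF2, and line-only sites 47.0% to 59.9% and 48.9% to 54.9%. Stretches higher in HPAF2 numbered 27 to 49, rank calls 0 to 0 in each direction, summit calls 0 to 0 (83 to 94 at an unadjusted p under 0.05 in limma), and one-sided loci 19 to 88 in CFPAC1 and 19 to 52 in HPAF2. Genes with a site in 1 line numbered 478 to 945 and 519 to 830, and HPAF2-only sites within 1 kb of a gene made up 6.52% to 9.66%. H3K27ac overlapped 88.7% to 91.5% of shared, 54.2% to 75.6% of CFPAC1-only and 57.4% to 59.3% of HPAF2-only sites, and FOS 42.5% to 60.1% of CFPAC1-only and 46.7% to 51.8% of HPAF2-only sites. With 1 CFPAC1 library left out, both marks overlapped a smaller share of CFPAC1-only than of HPAF2-only sites, and with 1 HPAF2 library left out a smaller share of CFPAC1-only sites lay within 1 kb of a gene. Stretches higher in CFPAC1 and HPAF2 numbered 39 and 42 without CFPAC1 replicate 1 and 47 and 49 without CFPAC1 replicate 2. Median widths were 408 to 431 and 284 to 336 bp at shared and line-only sites of CFPAC1, and 425 to 449 and 289 to 347.5 bp in HPAF2.

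The correlation of replicate differences between lines was -0.02 over 1282 regions (2 pairs). A single correlation over common regions cannot decide whether replicate numbers pair the samples. With the replicate block, 118 and 112 regions ranked higher in CFPAC1 and HPAF2 and 0 summits were called, and the calls on chromosomes 11, 16 and 20 were lost. Of the named chromosomes, stretches and sites, 280 values under alternatives kept their direction and call, 29 missed the threshold, and 0 changed direction. Because these items were chosen for calls or large differences, the count of kept directions is no measure of robustness. Depth is unknown, so weak peaks missing from a list may lie under its threshold.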
